A study of Mus musculus with 43 samples.

Results

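Astrocytes and oligodendrocyte precursor cells (OPCs) from the cerebral cortex of 3-month-old mice were compared with each other, once in immunocompetent mice and once in mice without Rag2. The comparison held the 12 libraries that the labels give as astrocytes and the 11 that they give as OPCs, which made 23 of the 43 libraries of the series. The other libraries were 8 of oligodendrocytes and 12 of microglia. Astrocytes came from 6 control mice (4 male and 2 female) and 6 Rag2-/- mice (3 male and 3 female), and OPCs from 6 control mice (4 male and 2 female) and 5 Rag2-/- mice (3 male and 2 female). Rag2 encodes a subunit of the recombinase that assembles antigen receptor genes, so that germline Rag2-/- mice lack mature T and B cells. The mice were littermate pairs numbered 1 to 6. The controls of pairs 1, 2, 3 and 5 were Rag2+/- and those of pairs 4 and 6 were Rag2+/+, and both were treated as immunocompetent. The OPC library of the Rag2-/- mouse of pair 5 was not analysed here, and the mice of pair 6 differed in sex. Cells were taken from the same suspension by immunopanning, in which cells bind to dishes coated with an antibody against a surface protein. Dishes for CD45 removed microglia first, dishes for PDGFRα then took OPCs, and dishes for HepaCAM took astrocytes last, after O4 and GalC dishes. An astrocyte and an OPC library with the same pair number and genotype therefore came from the same mouse. All libraries of a cell type were sequenced on the same lane, so the cell type, the lane and the place in the panning order cannot be told apart.

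Astrocytes and OPCs both descend from radial glia, the neural stem cells of the embryonic cortex, and both keep some genes of that ancestor in the adult. Astrocytes take up glutamate and potassium and supply neurons with metabolites, while OPCs keep dividing, receive synapses from neurons and give rise to oligodendrocytes. The transcription factors SOX9 in astrocytes and SOX10, OLIG1 and OLIG2 in the oligodendrocyte lineage, and signalling through Notch, BMP, FGF and PDGF, are known to take part in the choice between these fates.

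Between 6522754 and 23118497 read pairs per library were counted on genes (median 10390266), and mitochondrially encoded genes took 22.4% to 45.1% of them. The first principal component of log2 CPM (counts scaled to equal library size) held 52.9% of the variance and placed all 12 astrocyte libraries on one side of 0 and all 11 OPC libraries on the other. The second held 5.33% and set Astrocyte Rag2-/- replicate 1 apart, at 110.2 against at most 11.9 for the other 22 libraries. Rag2 itself (ENSMUSG00000032864, chr2:101455063-101462874, GRCm39) had no count in 22 of the 23 libraries and 4 counts in 1 OPC control library, so that it could not check the genotypes. Iftap, whose gene spans Rag2 (ENSMUSG00000027165, chr2:101391125-101484020), ran from 5.65 to 16.3 normalised CPM in the 12 control libraries. It had no count in 10 of the 11 Rag2-/- libraries and 2 counts in OPC Rag2-/- replicate 6.

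The labelled cell types were checked first by the proteins used for panning. Hepacam (ENSMUSG00000046240, chr9:37278621-37299291, plus strand), an adhesion protein of astrocytes, ran from 466 to 647 CPM in astrocyte libraries (median 592) and from 161 to 253 in OPC libraries (median 209). Pdgfra (ENSMUSG00000029231, chr5:75311994-75358876, plus strand), the PDGF receptor that defines OPCs, ran from 1389.8 to 2060.3 CPM in OPC libraries (median 1708) and from 9.64 to 108 in astrocyte libraries (median 25.1). Neither gene overlapped between the cell types, and the gap was wider for Pdgfra than for Hepacam. Of all genes tested, 7.62% were higher in astrocytes without overlap and 7.48% in OPCs. Differences are given as log2 of astrocytes over OPCs with the standard error of the fit, first in controls and then in Rag2-/- mice, so that positive values are higher in astrocytes. They were 1.54 ± 0.107 and 1.39 ± 0.114 for Hepacam (adjusted p = 5.77e-12 and 2.02e-10, edgeR's quasi-likelihood test) and -5.74 ± 0.431 and -5.22 ± 0.425 for Pdgfra (adjusted p = 2.34e-11 and 1.94e-10), with 6 and 6 libraries in controls and 6 and 5 in Rag2-/- mice. Because these are bulk samples, fewer cells of a type and less RNA per cell cannot be told apart.

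RNA of other cells was present in both sets of libraries. In OPC libraries, the 40 astrocyte identity genes stood at a median of 7.34% to 15.3% of their mean astrocyte level in the 6 controls and 10.3% to 26.8% in the 5 Rag2-/- mice. In astrocyte libraries, the 38 OPC identity genes stood at 6.03% to 10.8% of their OPC level in controls and 5.81% to 14.4% in Rag2-/- mice. Oligodendrocyte markers stood there at a median of 10.35% to 34.0% of their mean oligodendrocyte level in controls and 13.5% to 39.6% in Rag2-/- mice. In OPC libraries the share of these markers was 1.11% to 7.585% in controls and 1.25% to 10.5% in Rag2-/- mice. The summed level of 19 oligodendrocyte markers was higher in astrocytes, at 4709.6 to 8056 CPM against 703 to 1962 in OPCs in controls and at 5426 to 9563 against 718 to 2220.3 in Rag2-/- mice (exact permutation test, two-sided, adjusted p = 0.00505 in each genotype over 14 tests). The neuron marker sum was higher in OPCs, at 771 to 1496 CPM against 406 to 669 in controls (exact permutation test, adjusted p = 0.00505) and at 763 to 1781 against 449 to 1048 in Rag2-/- mice (exact permutation test, adjusted p = 0.0152). Sums of the endothelial, ependymal and committed OPC lists were also higher in OPCs in both genotypes (exact permutation tests, adjusted p from 0.00505 to 0.0253). The committed OPC list shares Gpr17 and Bmp4 with the OPC identity list, so it is not a list of other cells alone. Of its 17 genes tested 13 were higher in OPCs and 2 in astrocytes in controls, against 22.3% and 19.5% of all genes. The microglia sum was higher in OPCs too (exact permutation tests, adjusted p = 0.0165 and 0.0256), and its call in Rag2-/- mice was lost without OPC Rag2-/- replicate 3 or any of Astrocyte Rag2-/- replicates 2, 4, 5 and 6 (adjusted p from 0.0598 to 0.0821). The mural and fibroblast sum ran from 154 to 559.6 CPM in OPCs and 130.5 to 172 in astrocytes in Rag2-/- mice (exact permutation test, adjusted p = 0.0152), and from 141 to 394 and 144 to 195 in controls (adjusted p = 0.227). The smallest p these designs allow is 0.00216. These tests exchanged all libraries freely, although most came in pairs from the same mouse. With the libraries of each mouse kept together, a test chosen after the data were seen, none of the 14 sums passed the adjustment (exact sign-flip permutation test, adjusted p from 0.0729 to 0.281), since the smallest p is then 0.03125 with 6 mice and 0.0625 with 5. Within mice the oligodendrocyte sum was higher in astrocytes in 6 of 6 controls and 5 of 5 Rag2-/- mice. The neuron and the microglia sums were each higher in OPCs in 6 of 6 controls and 4 of 5 Rag2-/- mice. The part of such RNA in the differences below was not tested.

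Of 18276 genes tested, 7626 differed between astrocytes and OPCs in controls (41.7%) and 6923 in Rag2-/- mice (37.9%). In controls 3557 genes were higher in astrocytes (19.5%) and 4069 in OPCs (22.3%), and in Rag2-/- mice 3309 (18.1%) and 3614 (19.8%). In both genotypes 5734 genes were called, all in the same direction. Every astrocyte library stood above every OPC library for 1392 genes (7.62%) and below every OPC library for 1367 (7.48%). Each lack of overlap between the cell types named below is to be read against these shares. Without Astrocyte Rag2-/- replicate 1, which stood apart above, 7884 genes differed in controls and 6794 in Rag2-/- mice. A test against a fold of 2 (glmTreat of edgeR) called 1408 genes higher in astrocytes (7.7%) and 1578 in OPCs (8.63%) in controls, and 1113 (6.09%) and 1431 (7.83%) in Rag2-/- mice. It called 976 in astrocytes (5.34%) and 1160 in OPCs (6.35%) in both genotypes, and these are named over 2-fold below. Genes were said to be at like level where the 95% interval of the difference lay within a fold of 2 in both genotypes, which held for 5199 genes (28.4%). Like level does not mean equal, since 1292 of these genes passed the test for a difference in at least 1 genotype. The median difference over all genes tested was -0.06 in controls and -0.04 in Rag2-/- mice.

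The gene lists show the outline of what parted the cell types and what they held in common. Of the 40 astrocyte identity genes 38 were over 2-fold higher in astrocytes, and of the 38 OPC identity genes 33 were over 2-fold higher in OPCs. The progenitor lists held genes on both sides. Of 30 radial glia genes 11 were over 2-fold higher in astrocytes, 4 in OPCs and 4 were at like level. Of 46 glial fate transcription factors these counts were 11, 9 and 15. Such counts, here and below, are to be read against 5.34% (astrocytes), 6.35% (OPCs) and 28.4% (like level) of all genes. Genes of metabolism and transport lay mostly on the astrocyte side, and ion channels, cell cycle and adhesion genes mostly on the OPC side.

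**Figure D1:**
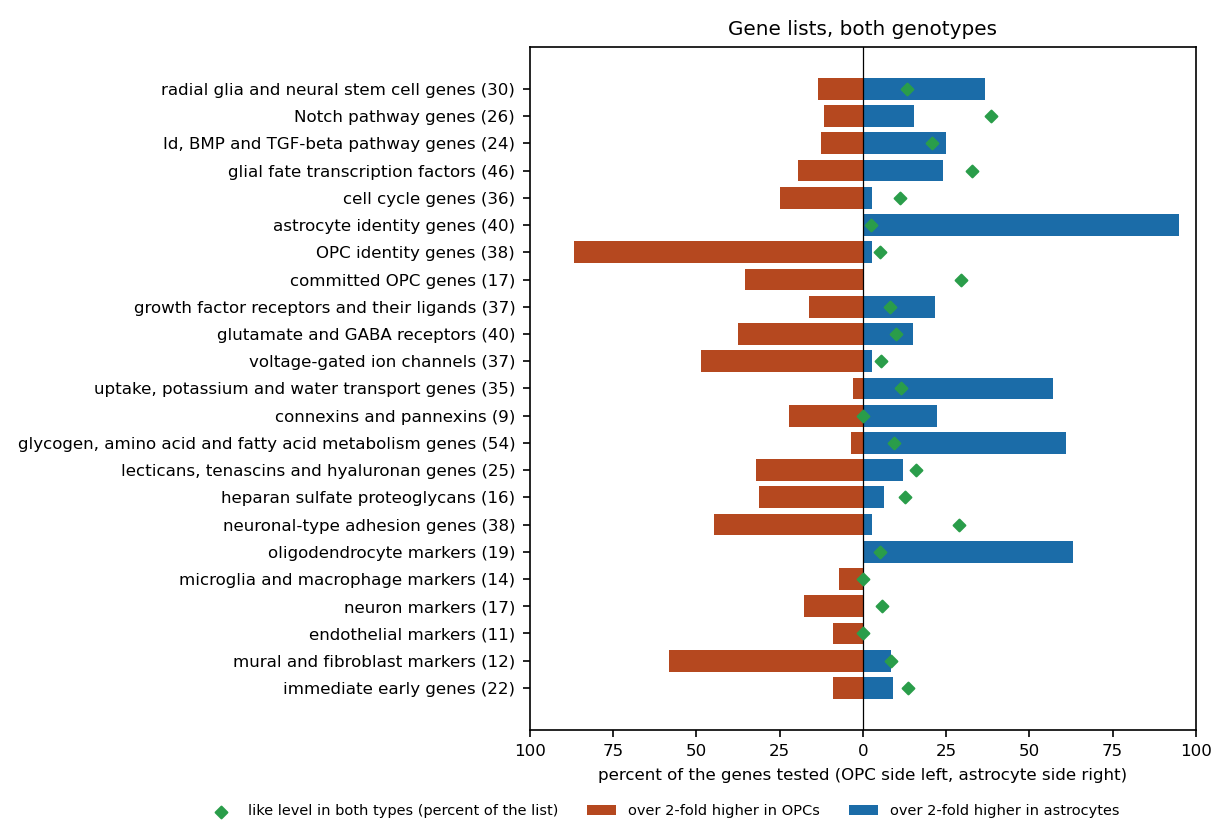
For each gene list (genes tested in brackets), bars show the percent of genes over 2-fold higher in OPCs (to the left, red) and in astrocytes (to the right, blue) in both genotypes, and green diamonds the percent at like level, read on the right-hand scale. The identity lists lie on their own sides, while radial glia, Notch, BMP and glial fate lists hold genes on both sides and at like level. Over all genes the shares are 6.35% (OPCs), 5.34% (astrocytes) and 28.4% (like level).

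The genes carried by both cell types were described first, progenitor-like genes among them. Of the genes tested here, 475 were over 2-fold higher in both astrocytes and OPCs than in oligodendrocytes and in microglia, out of 479 of 21368 genes (2.24%) in the fit of all 43 libraries. These were chosen by their level alone, not by any tie to progenitors. They held 8 of 30 radial glia genes tested, and also 3 of 12 mural and fibroblast markers. The part of mural or fibroblast RNA in them was not tested. Of the 475, 81 were also at like level in astrocytes and OPCs, 112 were over 2-fold higher in astrocytes and 1 was over 2-fold higher in OPCs. Among all genes tested the shares were 28.4%, 5.34% and 6.35%. The 81 genes held the transcription factors Sox21, Zeb1, Prrx1, Hey2, Pou3f2 and Sall2, the fatty acid binding protein Fabp7, the Notch ligand Jag1 and the proteoglycans Bcan, Ncan and Cspg5, of which Pou3f2 and Sall2 were chosen after their values were seen. The genes with the largest excess over the other glia were mostly weakly expressed, such as Gm37644 at 0.424 to 4.19 CPM in astrocytes and 0.707 to 7.68 in OPCs.

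Fabp7 (ENSMUSG00000019874, chr10:57660956-57664554, plus strand), a lipid binding protein classically used to mark radial glia, ran from 98.3 to 159 CPM in astrocyte libraries (median 127) and from 110.1 to 224 in OPC libraries (median 184). The ranges overlapped, with the higher median in OPCs. The difference was -0.43 ± 0.158 in controls and -0.40 ± 0.166 in Rag2-/- mice (adjusted p = 0.0302 and 0.0567, edgeR), and the call in controls was lost without any of Astrocyte control replicates 2, 3 and 6 or OPC control replicates 1, 2, 4 and 5 (adjusted p from 0.0502 to 0.0813). On the scale of all 43 libraries, oligodendrocytes held 3.50 to 45.2 CPM and microglia 0.159 to 4.71. Sox21 (ENSMUSG00000061517, chr14:118470644-118474442, minus strand), a SOX factor of neural progenitors, ran from 49.1 to 96.6 CPM in astrocytes (median 63.5) and 35.5 to 57.2 in OPCs (median 43.5), with a difference of 0.54 ± 0.163 and 0.53 ± 0.171 (adjusted p = 0.00832 and 0.0163). Its call in Rag2-/- mice was lost without Astrocyte Rag2-/- replicate 1 or OPC Rag2-/- replicate 2 or 3 (adjusted p from 0.0504 to 0.0577). Zeb1, a zinc finger factor, ran from 214 to 339 CPM in astrocytes and 246 to 378 in OPCs and differed by 0.01 ± 0.108 and 0.05 ± 0.114 (adjusted p = 0.946 and 0.764).

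Sox2, a core factor of neural stem cells, was higher in astrocytes, at 34.0 to 78.8 CPM (median 63.4) against 27.6 to 47.8 (median 29.8) in OPCs, with some overlap. Its difference was 0.92 ± 0.181 in controls and 0.83 ± 0.191 in Rag2-/- mice (adjusted p = 0.000169 and 0.000994), and it was among the 475 genes. The nuclear factor I genes Nfia, Nfib and Nfix, which promote gliogenesis, were at like level. Each was still called higher in astrocytes in both genotypes. Nfib differed by 0.52 ± 0.111 and 0.61 ± 0.1175 (adjusted p = 0.000385 and 0.000145, edgeR) and Nfix by 0.56 ± 0.1215 and 0.47 ± 0.128 (adjusted p = 0.000499 and 0.0048). The other gene of that family, Nfic, was likewise higher in astrocytes, by 0.60 ± 0.169 and 0.72 ± 0.179 (adjusted p = 0.00531 and 0.00200). Its interval did not stay within a fold of 2 in both genotypes. Nfia ran from 247 to 371 CPM in astrocytes and 189 to 247 in OPCs (0.48 ± 0.106 and 0.61 ± 0.112, adjusted p = 0.00052 and 7.59e-05). Vim, an intermediate filament of radial glia, stood at 26.8 to 55.7 CPM in astrocytes and 22.1 to 69.8 in OPCs and did not pass the test (0.08 ± 0.204 and 0.04 ± 0.212, adjusted p = 0.786 and 0.906). Nes, another filament of that stage, was over 2-fold higher in OPCs (-1.93 ± 0.333 and -2.19 ± 0.347), at 13.02 to 34.9 CPM against 2.22 to 11.1.

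Proteoglycans of the extracellular matrix were among the most abundant of the shared genes. Cspg5 ran from 378 to 559.95 CPM in astrocytes (median 489) and 413 to 517 in OPCs (median 471), a difference of 0.06 ± 0.0903 and 0.01 ± 0.0951 (adjusted p = 0.611 and 0.925). Ncan (neurocan) ran from 924 to 1249 CPM in astrocytes and 741 to 967 in OPCs, and Bcan (brevican) from 550 to 898 and 392 to 539. Bcan did not overlap between the cell types although its interval stayed within a fold of 2 (0.69 ± 0.116 and 0.73 ± 0.124). Ptprz1, a receptor phosphatase of radial glia, was high in both and higher in OPCs, at 2085 to 2942 CPM against 1135 to 1569 (-0.92 ± 0.0945 and -0.77 ± 0.0983). Among the 13 genes of the plot of shared genes, the mean of the lower cell type was 54.0% (Sox2) to 98.3% (Hey2) of that of the higher.

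**Figure D2:**
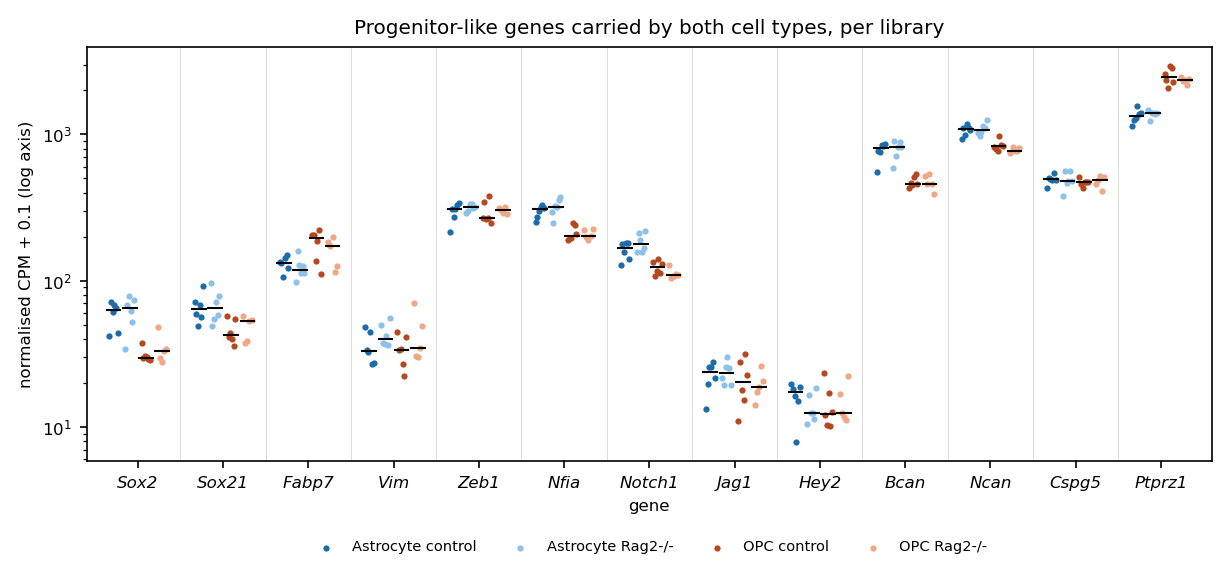
Normalised CPM plus 0.1 (log axis) of 13 genes carried by both cell types in each astrocyte and OPC library. Points are coloured by cell type and genotype, with black bars at the group medians. Bcan, Ncan and Cspg5 are matrix genes on none of the progenitor lists. Libraries of the cell types lie among each other for Cspg5, Zeb1, Vim and Hey2, while Bcan lies higher in astrocytes and Ptprz1 in OPCs.

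Genes of the 81 outside the lists, chosen after their values were seen, were Mtss2, an actin regulator, Adcyap1r1, the receptor of the peptide PACAP, and Mdk, the growth factor midkine. Per kilobase of exon, Mtss2 had a mean of 112 CPM in astrocytes and 99.2 in OPCs against 34.8 in oligodendrocytes and 1.80 in microglia. Adcyap1r1 had 38.5 and 35.3 CPM per kilobase against 6.39 and 0.408. Mdk had 12.9 and 17.4 CPM per kilobase against 2.23 and 0.779. All 3 stood lower in oligodendrocytes and lowest in microglia.

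**Figure D3:**
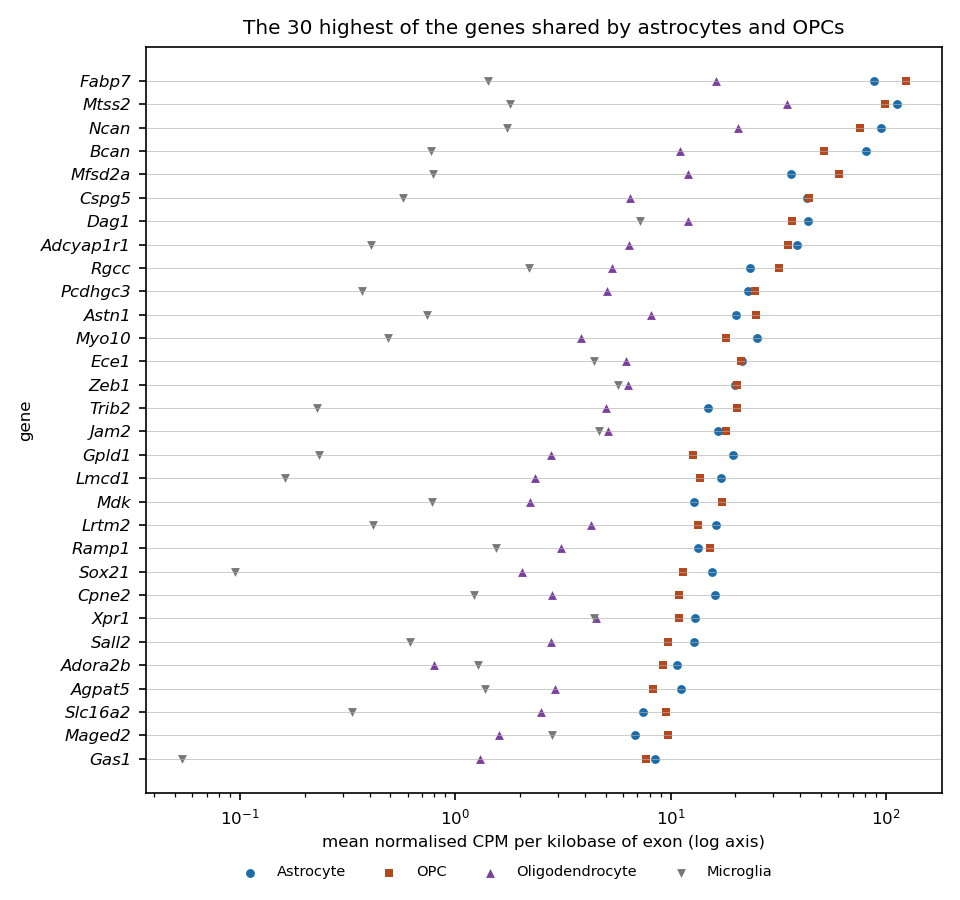
Mean normalised CPM per kilobase of exon (log axis, scaled over all 43 libraries) of the 30 most abundant of the 81 shared genes in astrocytes, OPCs, oligodendrocytes and microglia. Astrocytes and OPCs lie close together and above both other cell types, as the choice of these genes requires.

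The transcription factors that parted the cell types came next. Sox9 (ENSMUSG00000000567, chr11:112673009-112678586, plus strand), a factor of astrocytes, ran from 252 to 536 CPM in astrocytes (median 378) and 14.7 to 73.1 in OPCs (median 41.7). Sox10 (ENSMUSG00000033006, chr15:79039108-79049469, minus strand), its counterpart in the oligodendrocyte lineage, ran from 229 to 340.5 CPM in OPCs (median 291) and 13.9 to 86.0 in astrocytes (median 50.8). Sox9 and Sox10, both of the SoxE group, lay on opposite sides with no overlap, by 3.52 ± 0.283 and 2.91 ± 0.296 for Sox9 (adjusted p = 8.19e-11 and 8.74e-09) and -2.42 ± 0.271 and -2.50 ± 0.278 for Sox10 (adjusted p = 3.63e-08 and 4.23e-08). Sox8, the other gene of that group, ran from 146 to 261 CPM in OPCs and 81.1 to 143 in astrocytes and was higher in OPCs (-1.01 ± 0.133 and -0.996 ± 0.138, adjusted p = 6.08e-07 and 1.71e-06). Olig2, which specifies the oligodendrocyte lineage, ran from 115 to 282 CPM in OPCs and 32.6 to 62.0 in astrocytes (-2.22 ± 0.185 and -2.23 ± 0.189). Olig1, Nkx2-2, Myt1 and Zfp488, further factors of that lineage, were also over 2-fold higher in OPCs. Other factors of the same lineage went the other way. St18 (3.00 ± 0.449 and 2.43 ± 0.464) and Nkx6-2 (2.42 ± 0.571 and 2.75 ± 0.613) were over 2-fold higher in astrocytes, and Tcf7l2 was higher there by 0.77 ± 0.143 and 0.98 ± 0.151 (adjusted p = 7.46e-05 and 7.89e-06). The oligodendrocyte marker sum above lay on the same side, and its part in these 3 differences was not tested.

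Several factors of radial glia and the Gli genes, which act in hedgehog signalling, were higher in astrocytes. Pax6, a radial glia factor, ran from 58.7 to 88.7 CPM in astrocytes and 4.52 to 15.4 in OPCs (3.12 ± 0.243 and 2.54 ± 0.251). Hopx, which marks outer radial glia, ran from 37.3 to 70.5 and 3.03 to 11.8 CPM (3.52 ± 0.249 and 2.94 ± 0.257). None of Pax6, Hopx and the LIM factor Lhx2 (3.02 ± 0.230 and 2.39 ± 0.239) overlapped between the cell types, which held on the astrocyte side for 7.62% of all genes. Sox1, Emx2, Otx1, Gli1, Gli2 and Gli3 were over 2-fold higher in astrocytes as well. Gli3 stood at 144 to 215 CPM in astrocytes and 7.89 to 34.5 in OPCs. Sox3 and Sox4 went the other way and were over 2-fold higher in OPCs. The radial glia list was thus split by gene, with a median of 1.23 in controls and 1.18 in Rag2-/- mice.

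**Figure D4:**
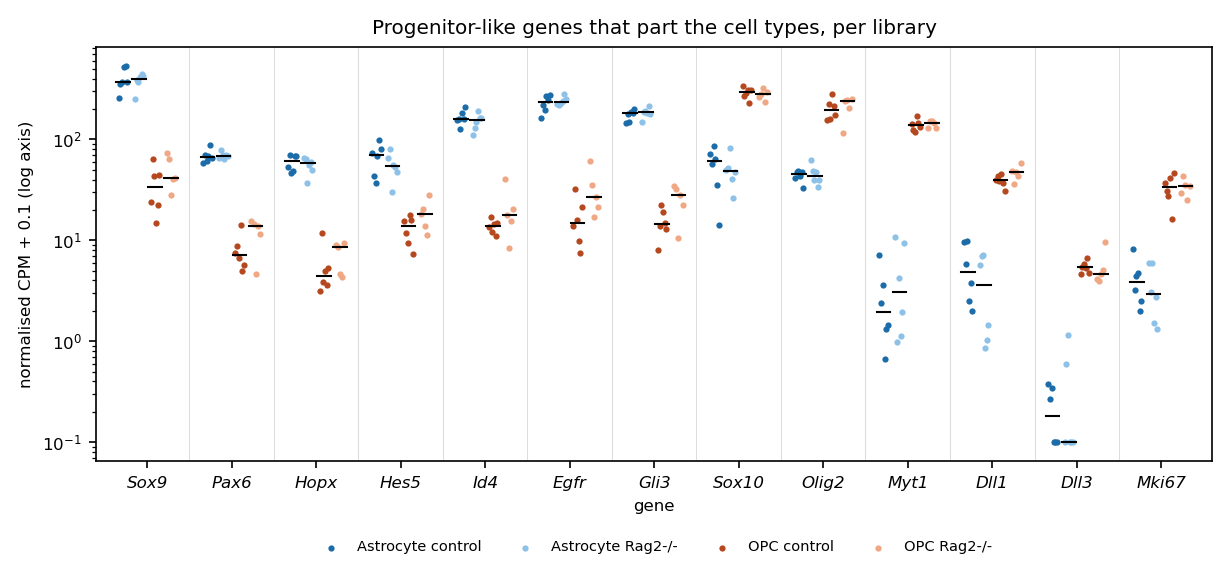
Normalised CPM plus 0.1 (log axis) of 13 progenitor-like genes in each library, coloured by cell type and genotype, with black bars at the group medians. Sox9, Pax6, Hopx, Hes5, Id4, Egfr and Gli3 lie higher in astrocytes, and Sox10, Olig2, Myt1, Dll1, Dll3 and Mki67 in OPCs.

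Notch signalling, in which DLL and JAG ligands on one cell release the intracellular part of a NOTCH receptor in its neighbour to act with RBPJ on HES and HEY genes, held genes on both sides. Of 26 genes 4 were over 2-fold higher in astrocytes (Notch2, Lfng, Hes1 and Hes5), 3 in OPCs (Dll1, Dll3 and Jag2, all ligands) and 10 were at like level, among them the receptor Notch1, the ligand Jag1 and the target Hey2. The shares over all genes were 5.34%, 6.35% and 28.4%. Dll1 (ENSMUSG00000014773, chr17:15587276-15597134, minus strand) ran from 30.7 to 58.7 CPM in OPCs (median 43.2) and 0.764 to 9.64 in astrocytes (median 4.63), a difference of -2.85 ± 0.417 in controls and -3.63 ± 0.440 in Rag2-/- mice (adjusted p = 3.05e-06 and 1.84e-07). Dll3, which inhibits signalling within its own cell, had 3.82 to 9.43 CPM in OPCs and 0 to 1.06 in astrocytes, where its median was 0. Both ligands stood higher in every OPC library than in any astrocyte library, while Jag1 was at like level (0.11 ± 0.223 and 0.28 ± 0.233).

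Of the receptors, Notch2 ran from 117 to 185 CPM in astrocytes and 17.8 to 55.5 in OPCs (2.46 ± 0.184 and 2.01 ± 0.193). Notch1 was at like level, at 129 to 219.99 CPM in astrocytes and 105 to 139.7 in OPCs (0.38 ± 0.113 and 0.70 ± 0.120). Among the target genes, Hes5 (ENSMUSG00000048001, chr4:155045373-155046828, plus strand) ran from 30.2 to 97.8 CPM in astrocytes (median 60.5) and 7.26 to 28.02 in OPCs (median 15.5). Neither Hes5 (2.37 ± 0.258 and 1.58 ± 0.266) nor Hes1 (2.32 ± 0.249 and 1.84 ± 0.258) overlapped between the cell types. Heyl differed by 1.36 ± 0.343 and 0.98 ± 0.355 (adjusted p = 0.00206 and 0.0301), and its call in Rag2-/- mice was lost without Astrocyte Rag2-/- replicate 3, 4 or 6 or OPC Rag2-/- replicate 2 or 3 (adjusted p from 0.0570 to 0.0930). Hey2 (ENSMUSG00000019789, chr10:30708350-30718828, minus strand) stood apart from Hes5, with 7.78 to 19.6 CPM in astrocytes and 9.98 to 23.2 in OPCs (0.16 ± 0.246 and -0.15 ± 0.257, adjusted p = 0.644 and 0.694). Of the 26 genes of this list 6 were over 2-fold higher in both cell types than in oligodendrocytes and microglia, against 2.24% of all genes. These were Hes5, Hey1, Hey2, Heyl, Jag1 and Notch3.

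The 250 bases before the start of Hes5, Hey2, Fabp7 and Sox21 are printed from RefSeq (GRCm38.p6, each on the strand of its gene), since these genes are high in both cell types against the other glia and Hes5 alone of them is over 2-fold apart between astrocytes and OPCs. Hes5 lies at chr4:154960673-154960922, Hey2 at chr10:30842784-30843033, Fabp7 at chr10:57784673-57784922 and Sox21 at chr14:118237031-118237280 on that build. Capitals mark TGGGAA, the core letters of RBPJ sites, and ACAAAG, letters found in SOX sites, on either strand, and the motifs share no bases in these sequences. Of 32851 promoters of this table, 21.6% held the first motif and 16.5% the second within the same 250 bases. Hes5 held 2 matches of the first and 1 of the second, Hey2 and Fabp7 held 1 match of the first each, and Sox21 held neither.
Hes5: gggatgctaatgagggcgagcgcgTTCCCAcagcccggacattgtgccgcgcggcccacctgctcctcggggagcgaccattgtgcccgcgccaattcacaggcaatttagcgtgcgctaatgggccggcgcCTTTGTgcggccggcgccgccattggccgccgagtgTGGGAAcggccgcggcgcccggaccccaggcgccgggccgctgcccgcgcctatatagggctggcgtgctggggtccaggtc
Hey2: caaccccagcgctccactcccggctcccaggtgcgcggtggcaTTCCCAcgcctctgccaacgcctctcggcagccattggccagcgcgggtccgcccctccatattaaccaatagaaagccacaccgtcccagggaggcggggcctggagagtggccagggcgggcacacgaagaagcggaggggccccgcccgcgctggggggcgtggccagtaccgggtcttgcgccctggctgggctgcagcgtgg
Fabp7: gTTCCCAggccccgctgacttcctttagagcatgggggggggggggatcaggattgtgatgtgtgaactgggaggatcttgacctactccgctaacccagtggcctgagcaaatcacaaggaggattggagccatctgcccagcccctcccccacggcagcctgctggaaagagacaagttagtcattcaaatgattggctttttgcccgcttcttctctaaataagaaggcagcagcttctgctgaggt
Sox21: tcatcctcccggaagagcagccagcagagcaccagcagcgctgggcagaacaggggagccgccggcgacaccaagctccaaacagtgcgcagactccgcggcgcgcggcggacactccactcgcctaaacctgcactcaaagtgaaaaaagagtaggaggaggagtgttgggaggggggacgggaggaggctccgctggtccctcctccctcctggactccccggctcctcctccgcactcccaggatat

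The Id genes, which block basic helix-loop-helix factors and respond to BMP, all lay on the astrocyte side. Id4 ran from 112 to 209 CPM in astrocytes and 8.25 to 40.6 in OPCs (3.60 ± 0.251 and 2.88 ± 0.260), and Id3 from 66.1 to 128 and 6.99 to 23.9 (2.96 ± 0.251 and 2.74 ± 0.265). Id1, Id2, the receptor Bmpr1b and the antagonist Chrdl1 were also over 2-fold higher in astrocytes. The ligands Bmp4 and Bmp2 went the other way. Bmp4 had 5.99 to 15.5 CPM in OPCs and 0 to 3.92 in astrocytes (-2.79 ± 0.499 and -2.55 ± 0.499). Of 24 genes of this list 6 were over 2-fold higher in astrocytes and 3 in OPCs, against 5.34% and 6.35% of all genes. At like level were 5, against 28.4% of all genes, and these held the receptor Bmpr2 and the signal transducers Smad4 and Smad5.

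Of 36 genes of cell division 20 were higher in OPCs, 1 in astrocytes and 15 did not pass the test in controls, and these counts were 19, 2 and 15 in Rag2-/- mice. Over all genes tested 22.3% were higher in OPCs in controls and 19.8% in Rag2-/- mice. The median of the list was -1.48 in controls and -1.45 in Rag2-/- mice. Mki67, a marker of dividing cells, ran from 16.3 to 46.0 CPM in OPCs (median 34.2) and 1.23 to 8.13 in astrocytes (median 3.06), with no overlap (-3.03 ± 0.333 and -3.37 ± 0.344, adjusted p = 2.55e-08 and 9.58e-09). The D cyclins, which carry cells into the cycle, were split. Ccnd1 ran from 87.4 to 151 CPM in OPCs and 13.6 to 32.5 in astrocytes (-2.60 ± 0.194 and -2.42 ± 0.197), Ccnd2 from 17.2 to 38.9 and 58.1 to 100.3 (1.48 ± 0.195 and 1.46 ± 0.207), and Ccnd3 was at like level. Cdk6, a kinase partner of these cyclins, was over 2-fold higher in OPCs, whereas the inhibitor Cdkn1b was at like level.

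The genes with the largest differences were taken by a rule of size, among protein-coding genes over 2-fold apart without overlap between libraries. In astrocytes the 12 were Myoc, Lama3, Gdf10, Gfap, Gm973, Papss2, Angptl4, Aox1, Ptchd4, Cyp4f15, Copz2 and Pdk4. Myoc, the secreted protein myocilin, ran from 10.2 to 41.8 CPM in astrocytes and 0 to 4.64 in OPCs. Pdk4, a kinase that turns pyruvate away from oxidation, ran from 82.9 to 122 and 1.31 to 21.98 CPM (4.19 ± 0.359 and 3.24 ± 0.363). Gfap, an intermediate filament of astrocytes, stood at 56.5 to 109 CPM in astrocytes and 1.45 to 14.1 in OPCs (3.74 ± 0.392 and 3.64 ± 0.419). These 12 genes include secreted and matrix proteins (Myoc, Lama3, Gdf10, Angptl4) and enzymes (Papss2, Aox1, Cyp4f15, Pdk4).

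In OPCs the 12 were Stk32a, Mmp2, Oprl1, Calcrl, Neu4, Ntn1, Matn4, Pdgfra, Acta2, Itga9, Nxph1 and Pcdh15. Neu4, a sialidase, ran from 135 to 187 CPM in OPCs and 0.210 to 8.15 in astrocytes (-5.62 ± 0.389 and -5.27 ± 0.381). Nxph1, a secreted ligand of neurexins, ran from 148 to 248 and 0.848 to 11.4 CPM (-5.93 ± 0.378 and -5.13 ± 0.359), and Ntn1, the guidance cue netrin 1, from 107 to 150.4 and 0.660 to 8.80 (-5.48 ± 0.405 and -5.25 ± 0.400). Acta2, the actin of smooth muscle, ran from 5.99 to 95.1 CPM over OPC libraries, and it is a marker of mural cells. Of 12 mural and fibroblast markers tested, 7 were over 2-fold higher in OPCs (Col3a1, Lum, Dcn, Slc6a13, Acta2, Myh11 and Vtn) and 1, Pdgfrb, in astrocytes. The shares over all genes were 6.35% and 5.34%. Dcn had 8.13 to 31.8 CPM in OPCs and 0 to 2.72 in astrocytes. The part of such cells in the OPC differences was not tested.

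A few identity genes were not over 2-fold higher in the cell type of their list. S100b, an astrocyte calcium binding protein, was at like level although its libraries did not overlap, with 124 to 188 CPM in astrocytes and 86.4 to 114 in OPCs (0.64 ± 0.0995 and 0.59 ± 0.105). Gpr37l1, listed with the OPC genes, was over 2-fold higher in astrocytes, at 953 to 1698 CPM against 373 to 545 (1.43 ± 0.109 and 1.30 ± 0.115). Cspg5 and Ostm1 of the OPC list were at like level. Among the most abundant protein-coding genes at like level were Actb, Cd81, Cox6a1, Psap, Ptn, Dbi, Atp5f1b, Ywhae and Selenow, of which Dbi, the diazepam binding inhibitor, ran from 266 to 402 CPM in astrocytes and 221 to 304 in OPCs.

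Growth factor receptors lay on both sides. The FGF receptors Fgfr1, Fgfr2 and Fgfr3, the EGF receptor family genes Egfr and Erbb2 and the PDGF receptor Pdgfrb were over 2-fold higher in astrocytes. Pdgfra, the EGF receptor family genes Erbb3 and Erbb4, and Kit were over 2-fold higher in OPCs, so that the EGF and PDGF receptor families each had members on either side. Fgfr3 ran from 351 to 587 CPM in astrocytes (median 521) and 20.4 to 127 in OPCs (median 49.8), and differed by 3.64 ± 0.267 and 2.73 ± 0.276. Egfr ran from 162 to 285 and 7.37 to 61.5 CPM and differed by 3.78 ± 0.304 and 2.89 ± 0.312. Neither receptor overlapped between the cell types. Erbb4, a neuregulin receptor, ran from 81.4 to 152 CPM in OPCs and 9.32 to 32.8 in astrocytes (-2.64 ± 0.255 and -2.32 ± 0.257). Of the ligands, Fgf1 was over 2-fold higher in astrocytes and Pdgfb in OPCs. In this list of 37 genes 8 were over 2-fold higher in astrocytes, 6 in OPCs and 3 at like level. Among all genes the shares were 5.34%, 6.35% and 28.4%.

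Receptors for glutamate and GABA differed by subunit. Of 40 genes 15 were over 2-fold higher in OPCs, 6 in astrocytes and 4 at like level. The shares over all genes were 6.35%, 5.34% and 28.4%. The AMPA receptor subunit Gria2 was at like level, at 327 to 775 CPM in astrocytes and 379.8 to 633 in OPCs (-0.02 ± 0.164 and -0.09 ± 0.173). Gria3, another subunit of that receptor, ran from 168 to 285 CPM in OPCs and 8.35 to 26.4 in astrocytes (-3.76 ± 0.217 and -3.61 ± 0.219). Gria4 and the auxiliary subunit Cacng4 were over 2-fold higher in OPCs as well. Among metabotropic receptors, Grm3 was at 308 to 433 CPM in astrocytes and 20.5 to 68.6 in OPCs (3.61 ± 0.236 and 2.94 ± 0.246), and Grm5 at 4.61 to 12.3 and 58.7 to 105 (-3.00 ± 0.195 and -3.02 ± 0.199). Of the NMDA receptor subunits, Grin2c was over 2-fold higher in astrocytes and Grin2d in OPCs, and Grin2b was at like level.

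Voltage-gated ion channels, which carry the currents recorded in OPCs, were mostly on the OPC side. Of 37 genes 28 were higher in OPCs and 1 in astrocytes in controls, against 22.3% and 19.5% of all genes. In both genotypes 18 were over 2-fold higher in OPCs, against 6.35% of all genes. The sodium channel Scn3a ran from 46.0 to 82.4 CPM in OPCs and 0.872 to 6.25 in astrocytes (-4.69 ± 0.361 and -4.46 ± 0.353), and the potassium channel Kcnd3 differed by -3.18 ± 0.179 and -3.00 ± 0.181. The potassium channel Kcna2 was the 1 gene of the list over 2-fold higher in astrocytes, at 187 to 279 CPM against 68.1 to 114. Of 38 neuronal-type adhesion genes 17 were over 2-fold higher in OPCs, 1 in astrocytes (Cadm1) and 11 were at like level. Among all genes these shares were 6.35%, 5.34% and 28.4%. Of 17 neuron markers 12 were higher in OPC libraries in controls and 11 in Rag2-/- mice, at a median of -1.18 and -1.12, against 22.3% and 19.8% of all genes, and their part in these differences was not tested. Snap25, a synaptic protein of neurons, ran from 178 to 419 CPM in OPCs and 84.5 to 289.7 in astrocytes.

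Genes of transport and metabolism were mostly on the astrocyte side. Of 35 genes of uptake and of potassium and water transport 20 were over 2-fold higher in astrocytes, against 5.34% of all genes. Slc1a2, the main glutamate transporter, ran from 12414 to 17577 CPM in astrocytes (median 14255) and 1679.5 to 4228 in OPCs (median 2193), with differences of 2.83 ± 0.146 and 2.39 ± 0.154. Aqp4, the water channel of astrocyte endfeet, ran from 750.03 to 1107 and 41.6 to 167 CPM (3.80 ± 0.208 and 3.13 ± 0.217). The gap junction genes Gja1 and Gjb6 were over 2-fold higher in astrocytes, and Gjc3 and Panx1 in OPCs.

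Of 54 genes of glycogen, amino acid and fatty acid metabolism 33 were over 2-fold higher in astrocytes and 2 in OPCs. The shares over all genes were 5.34% and 6.35%. Glul, which makes glutamine from glutamate, ran from 3840.3 to 5240 CPM in astrocytes and 301 to 946 in OPCs (3.16 ± 0.181 and 2.73 ± 0.191). The genes on the OPC side were both transaminases. Bcat1, the cytosolic enzyme for branched-chain amino acids, had 49.4 to 87.1 CPM in OPCs and 3.11 to 11.8 in astrocytes (-3.60 ± 0.248 and -3.17 ± 0.247), and the mitochondrial alanine transaminase Gpt2 173 to 238 and 54.3 to 104.2 (-1.60 ± 0.125 and -1.39 ± 0.128).

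The matrix genes that parted the cell types were mostly OPC genes. Of 25 lecticans, tenascins and hyaluronan genes 8 were over 2-fold higher in OPCs, 3 in astrocytes and 4 at like level. Among all genes the shares were 6.35%, 5.34% and 28.4%. Cspg4, the NG2 proteoglycan, ran from 381 to 678 CPM in OPCs and 4.71 to 37.8 in astrocytes (-5.58 ± 0.381 and -5.04 ± 0.373). Vcan (versican) ran from 900.1 to 1205 and 43.3 to 83.1 CPM (-3.98 ± 0.157 and -3.98 ± 0.160), and Tnr (tenascin R) from 1430.4 to 2383 and 26.0 to 169.5 (-4.79 ± 0.359 and -4.29 ± 0.355). Within the lecticans, Bcan and Ncan were therefore at like level and Vcan was not.

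The differences were finally compared between genotypes. Of 18276 genes 1 (0.00547%) passed the test of a different astrocyte-OPC difference in Rag2-/- mice (edgeR), and 808 had an unadjusted p under 0.05 (4.42%). This count depended on the fit. Without a filter on low counts 115 genes passed, and with DESeq2 2. None passed with the mouse as a block (655 at an unadjusted p under 0.05), with limma voom (883) or with Rag2+/- controls alone (736). The 1 gene was Fkbp10 (ENSMUSG00000001555, chr11:100305808-100315669, plus strand), which encodes a collagen chaperone of the endoplasmic reticulum. In astrocytes it ran from 23.5 to 31.6 CPM in controls, with a median of 29.5, and in Rag2-/- mice from 20.5 to 41.6, with a median of 23.7. In OPCs it ran from 0.182 to 1.61 CPM in controls (median 1.33), and the Rag2-/- libraries of pairs 1, 2, 3, 4 and 6 had 8.40, 17.2, 4.46, 2.69 and 7.66 CPM. The genotypes did not overlap in OPCs and did in astrocytes. The astrocyte-OPC difference was 4.75 ± 0.365 in controls and 1.76 ± 0.322 in Rag2-/- mice, and the second minus the first was -3.00 ± 0.465 (adjusted p = 0.0133, edgeR's quasi-likelihood test).

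The call for Fkbp10 did not hold in every fit. With the mouse as a replicate block, which drops Astrocyte Rag2-/- replicate 5 because the OPC library of that mouse was not analysed here, it was -2.81 (adjusted p = 0.307, edgeR). With limma voom it was -3.19 (adjusted p = 0.157), and without OPC Rag2-/- replicate 2 it was -2.62 (adjusted p = 0.0553, edgeR). Over the alternatives computed for this gene its adjusted p ran from 4.04e-07 (DESeq2) to 0.307. Of its exonic bases 25.5% overlap a gene on the opposite strand, and whether the counting used strand is not given in the sources used here. The next genes by p did not pass the adjustment. On the side of smaller values in Rag2-/- mice these were Npr1, a natriuretic peptide receptor (-4.17 ± 0.949, adjusted p = 0.896, edgeR), and Frem2, an extracellular matrix protein (-2.40 ± 0.588, adjusted p = 0.956). On the other side they were B3gat2, Gm18959 and Mcf2.

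All 40 astrocyte identity genes had a smaller difference in Rag2-/- mice than in controls. The list median was 3.13 in controls and 2.57 in Rag2-/- mice. Most other lists leaned the same way, among them 24 of 30 radial glia genes, 41 of 54 metabolism genes and 17 of 19 oligodendrocyte markers. The cell cycle (14 of 36), endothelial (4 of 11) and mural and fibroblast (5 of 12) lists did not. The share over all genes was not computed. Of all genes tested, 4.42% had an unadjusted p under 0.05 between genotypes. None of the 40 passed the test of the difference between genotypes (edgeR, smallest adjusted p = 1), and 15 had an unadjusted p under 0.05. In OPC libraries of Rag2-/- mice, the median share of the astrocyte level over this list was 26.8%, 18.4% and 16.9% in replicates 1, 2 and 4, above the 7.34% to 15.3% of control OPC libraries, and 10.3% and 13.9% in replicates 3 and 6, within that range. Neither the difference of these shares nor their part in the smaller differences was tested. Of the 38 OPC identity genes 33 had the smaller difference in Rag2-/- mice, with medians of -3.69 and -3.60. Of 604 genes on the lists 585 were tested here, and none of them passed the test of the difference between genotypes.

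**Figure D5:**
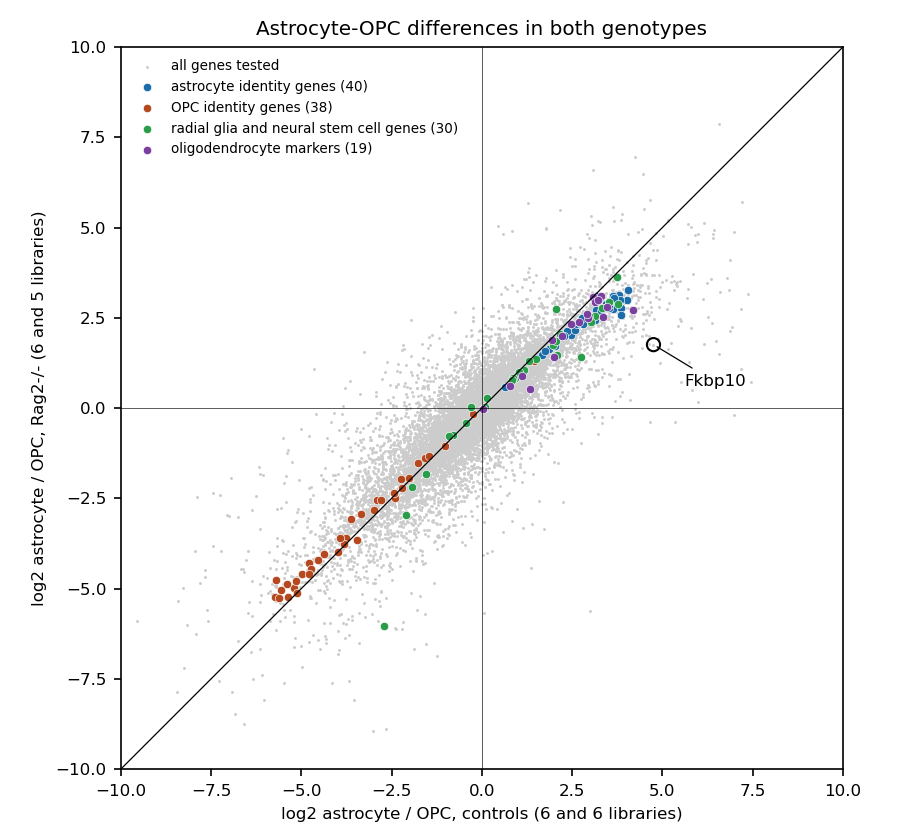
Log2 of astrocytes over OPCs in controls (x axis) and in Rag2-/- mice (y axis) for all 18276 genes tested (grey) and for gene lists (coloured), with the line of equal differences. Most listed genes lie near the line, with Sox3 farther off at -2.71 and -6.05, and Fkbp10 lies below it at 4.75 and 1.76.

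Oligodendrocyte RNA moved with the astrocyte side of these comparisons. Of 19 oligodendrocyte markers 18 were higher in astrocyte libraries in controls and 15 in Rag2-/- mice, against 19.5% and 18.1% of all genes, and none was higher in OPCs. Mbp, a myelin protein, ran from 1799.8 to 4508 CPM in astrocytes and 167 to 699 in OPCs (3.17 ± 0.323 and 2.93 ± 0.343). Of 14 microglia markers 13 were higher in OPCs in controls and 9 in Rag2-/- mice, against 22.3% and 19.8% of all genes. Immediate early genes, which respond to tissue dissociation, went both ways, with 7 of 22 higher in astrocytes and 10 in OPCs in each genotype. Over all genes these shares were 19.5% and 22.3% in controls and 18.1% and 19.8% in Rag2-/- mice.

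Some named genes share exons with a gene on the opposite strand, and their reads cannot be told apart where the counting did not use strand. The share of exonic bases was 59.9% for Sox2, 48.4% for Ccnd1, 38.9% for Hopx, 36.2% for Id2, 34.8% for Dll1, 32.1% for Hes5, 31.1% for Bmp4, 24.3% for Mmp2, 21.1% for Pax6 and 20.2% for Sox21. Of windows of 50 bases, 12.6% of Glul, 14.2% of Actb and 14.7% of Zfp488 also occur in transcripts of another gene.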

How the data were processed

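The study's authors panned glia from the cortex, amplified cDNA from the RNA, sequenced pairs of 50-base reads, used STAR 2.7.8a for alignment to GRCm39 and HTSeq with the Ensembl annotation for counting. The authors deposited raw whole-number counts per gene for each library. Pairs that were not assigned to a gene for any reason (35.8% to 47.8%) entered neither library sizes nor tests. Those that fell on no annotated feature were 25.1% to 38.8% of all pairs. Amplified reads carry no molecular identifiers, so low counts vary by more than counting error.

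Libraries were grouped by the cell type and genotype of the labels. Symbols, positions and exon lengths came from GENCODE M39, which held 54749 of 55416 identifiers. Counts of the 23 libraries were fitted with edgeR 4.0.16 in R 4.3.3 by the quasi-likelihood test (two-sided), with 4 groups and sex as terms, TMM factors and filterByExpr (minimum count 10, minimum total 15), and Benjamini-Hochberg adjusted p under 0.05 were called. Genes over 2-fold apart were tested with glmTreat. All 43 libraries were fitted alike for genes over 2-fold higher in both cell types, averaged over genotypes, than in oligodendrocytes and in microglia, which needed all 4 contrasts. CPM are TMM-scaled. Summed CPM of the marker lists was compared with exact permutation tests, and within mice with exact sign flips. Alternatives used DESeq2 1.42.0 (size factors, and its own test), limma 3.58.1 (voom), other filters, no sex term, the mouse as a block, each genotype alone, Rag2+/- controls alone, and each library left out. The main edgeR fits, but not the alternatives or the permutation tests, were run on simulated counts with known changes. Of 100 genes changed by 1 on the log2 scale between cell types, 42 were recovered in each genotype. Where the difference between genotypes was changed by 1 on that scale 27 of 100 genes were recovered, and 57 of 100 where it was changed by 2.

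The libraries of 1 mouse are paired by design. Their deviations from group means correlated on average by 0.0554 (-0.0260 to 0.172, n = 11), against -0.0109 for different mice (n = 55). Because deviations sum to 0 within a group, the second value largely follows from the first and is no separate comparison. No 2 libraries of a group were alike within counting noise (smallest chi-square 8.61 per gene). Named were genes of 24 lists, the 12 with the largest differences on each side (protein-coding, no overlap, at least 5 CPM per kilobase), the 10 most abundant at like level, the 10 highest over the other glia, the 3 smallest p in each direction of the genotype difference, Rag2 and Iftap, and some genes that this rule names are not reported here. The genes and lists were chosen with earlier results of these data known. Python 3.11.15, numpy 2.4.6, pandas 2.3.3 and matplotlib 3.10.9 assembled values and plots.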

Additional observations from a re-analysis of the deposited data

Results flagged for a closer look

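Single libraries stood far from the rest of their group, by Dixon's test, in 29 of 323 groups looked at, and chance alone sets about 1 in 20 groups apart. All values are normalised CPM. In astrocyte controls, replicate 1 held Hepacam at 466 and Bcan at 550, replicate 3 Pdgfra at 108 and Gja1 at 663, replicate 4 Slc1a2 at 16552 and replicate 6 Dcn at 0.629. Astrocyte control replicate 3 also had the endothelial markers summed to 55.0, the mural and fibroblast markers to 195 and the ependymal markers to 22.5. In astrocytes of Rag2-/- mice, replicate 1 held Sox9 at 252, replicate 2 S100b at 188 and Gpr37l1 at 1698 and replicate 3 Ugt8a at 185.

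In OPC controls, replicate 1 held Sox2 at 37.7, replicate 2 Hopx at 11.8 and Grm3 at 52.8, replicate 4 Papss2 at 12.8, Olig1 at 1052, Lhx2 at 8.28 and Ncan at 967 and replicate 6 Id3 at 23.9. In OPCs of Rag2-/- mice, replicate 1 held Notch1 at 127, Ccnd1 at 87.4 and Gria3 at 171, and replicate 6 Dll3 at 9.43, Vcan at 1169 and Iftap at 0.0786. The microglia and macrophage markers summed to 1609 in OPC control replicate 3 and to 1699.9 in OPC Rag2-/- replicate 3, the mice of pair 3.

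The astrocyte-OPC difference of Fkbp10 stood out because it differed between genotypes by -3.00 on the log2 scale, by the test of that difference itself (edgeR, adjusted p = 0.0133).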

How the results depend on the processing

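Counts of genes called between astrocytes and OPCs stayed within 1.5 times the reported ones under every alternative that gave them. No named value that passed the threshold in the reported fit or in the alternative changed sign. Values that passed in neither were not checked for sign. Of 14 marker sums 13 passed as reported. With each mouse's libraries kept together as a replicate block (exact sign flips, added after seeing the data) 0 passed. There no sum of either genotype could pass the adjustment over the 14 tests, since the smallest p is 0.03125 with 6 mice and 0.0625 with 5. The other exception was the test between genotypes, where 1 gene was called. Without a filter on low counts 115 genes were called (26 higher and 89 lower in Rag2-/- mice), with DESeq2 2, with limma voom 0 (883 at an unadjusted p under 0.05) and with Rag2+/- controls alone 0 (736), and the cause was not tested. Leaving out single libraries gave 0 to 2 genes, with 0 without OPC Rag2-/- replicate 2 and 2 without OPC Rag2-/- replicate 6.

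With the mouse as a replicate block, 0 genes were called between genotypes (655 at an unadjusted p under 0.05). The block called 7285 genes in controls and 6250 in Rag2-/- mice, of which 7020 and 6024 were among the 7626 and 6923 of the unblocked fit. Among named genes it ended the calls for Fkbp10 between genotypes, for Cox6a1, Tcf12 and Bcas1 in Rag2-/- mice and for Gria1 in controls.

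Of values of named genes and sums, 2620 kept their side of the threshold under the other settings, 27 passed it and 23 fell below it. With single libraries left out these counts were 12306, 38 and 76. Libraries of 6522754 to 23118497 counts limit the calls for small differences and weakly expressed genes. The lane, the cell type and the panning order cannot be told apart.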
